A study of Mus musculus with 2 samples.

Results

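The genes described here encode the matrix metalloproteinases (MMPs), the ADAMTS proteinases and the tissue inhibitors of metalloproteinases (TIMPs). They were taken by symbol, as every gene whose name is Mmp, Adamts or Timp followed by its number, with an optional letter for the MMPs. This gave 46 of the 22838 genes in the table, namely 23 MMP, 19 ADAMTS and 4 TIMP genes. The level of messenger RNA was measured by mRNA sequencing in NIH3T3 cells, an established line of mouse fibroblasts. One culture was given 100 µM ALA for 16 h and the other was left untreated, and both groups hold 1 library. The labels give ALA only as an abbreviation. In work on heme it means δ-aminolevulinic acid, the compound from which heme is built. Both groups are the same cell line, with no other allele or agent in the labels, and the comparison sets the transcripts of treated cells beside those of untreated cells.

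MMPs and ADAMTS enzymes are zinc-dependent proteinases that cut the proteins of the extracellular matrix. Most MMPs are made as inactive precursors, in which a cysteine of the propeptide blocks the zinc until it is cut away. ADAMTS enzymes carry thrombospondin repeats and fall into groups that cut proteoglycans, trim procollagen or act on other matrix proteins. TIMPs close the active site of these enzymes, and TIMP2 also takes part in the activation of MMP2 by the membrane-bound MMP14. Fibroblasts are a source of many, but not all, of these proteins in connective tissue.

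Values are FPKM, by definition fragments scaled to transcript length and to the mapped reads of the library. Levels of genes of different length can thus be compared within a library. How these 2 libraries were scaled to each other is not given in the sources used here. The FPKM values summed to 512324 in the ALA library and to 540963 in the untreated library. The steps between the lowest values gave an estimated depth of about 29100000 reads for ALA and 21500000 reads for untreated, where 20800000 to 23100000 fitted the untreated library nearly as well. A gene is called measured where its values average at least 1 FPKM over both libraries, which held for 10929 genes. A fold is the plain ratio of FPKM values, and its 95% counting interval comes from approximate reads at these depths. The interval covers counting error only, and not the scaling of the libraries. Each group is a single library, so the spread between cultures is unknown and no p-value is given. All 8 fibroblast markers were measured, at 20.97 to 4717 FPKM in the ALA library and 19.7 to 4976 FPKM in the untreated library. With ALA 7 of the 8 were lower, where 52.2% of all measured genes were lower. With equal FPKM totals 6 of the 8 were lower, where 4711 of the 10929 measured genes were. Thy1, at 38.8 FPKM with ALA and 60.2 FPKM untreated, was the only 1 of these markers at least 1.5-fold lower, where 7.16% of all measured genes were. Of 5 epithelial markers Cdh1 had 0.944 FPKM with ALA and 1.23 FPKM untreated, Krt5 and Krt8 were at 0.0834 and 0.0142 FPKM with ALA and at 0 untreated, and Epcam and Krt18 were listed at 0 in both libraries. The 7 macrophage and blood markers analysed summed to 18.02 FPKM with ALA and 29.9 FPKM untreated, a sum carried by 2 markers that were lower with ALA. These were Lyz2, at 9.59 FPKM with ALA and 15.2 FPKM untreated, and Cd14, at 4.69 FPKM with ALA and 13.1 FPKM untreated. The other 5 had higher values with ALA, though the counting interval of Aif1 (0.817 to 2.76 for the ratio) included 1. Cd68 had 1.40 FPKM with ALA and 0.237 FPKM untreated, Aif1 had 1.42 FPKM with ALA and 0.949 FPKM untreated, and Ptprc had 0.754 FPKM with ALA and 0.367 FPKM untreated. Itgam was at 0.1202 FPKM with ALA and at 0 untreated, and the receptor gene Csf1r was at 0.0466 FPKM with ALA and at 0 untreated. As the measurement is on bulk RNA, fewer cells of a type and less RNA per cell cannot be told apart.

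Of the 46 genes 17 were measured, 13 had lower nonzero values in at least 1 library, and 16 were listed at 0 in both. The share listed at 0 in both libraries was 34.8% of all genes. The 16 genes include 10 neighbours on mouse chromosome 9, which in the GENCODE annotation of GRCm38, the assembly named mm10, fill a stretch of 427 kb from 7272514 to 7699585. In their order along the chromosome they are Mmp13, Mmp12, Mmp1b, Mmp3, Mmp1a, Mmp10, Mmp8, Mmp27, Mmp20 and Mmp7. They encode the collagenases, the stromelysins MMP3 and MMP10, the macrophage elastase MMP12, the enamel proteinase MMP20, the matrilysin MMP7 and MMP27. The genes on both sides of the cluster had clear values. On one side Dcun1d5 was at 46.5 FPKM with ALA and 41.7 FPKM untreated, and on the other Tmem123 was at 44.2 FPKM with ALA and 47.5 FPKM untreated. No gene of the cluster had a value above 0 in either library.

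**Figure D1:**
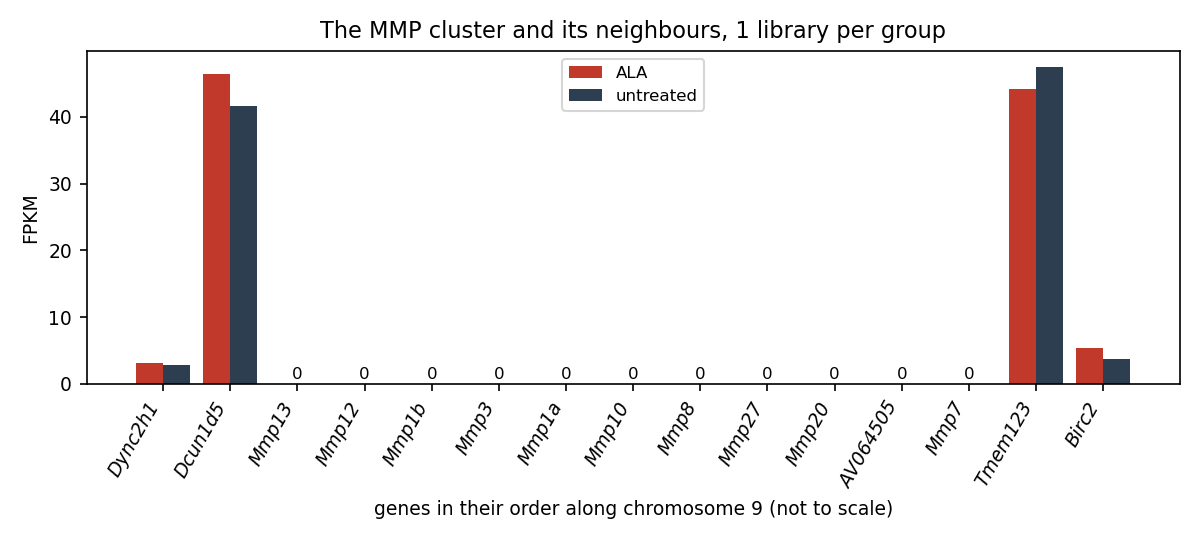
FPKM (vertical axis, linear) of the genes in and beside the MMP cluster, in their order along chromosome 9, with 1 bar for the ALA library and 1 for the untreated library. The 10 MMP genes are listed at 0 in both libraries, between neighbours such as Dcun1d5 at 46.5 FPKM with ALA and 41.7 FPKM untreated.

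The promoters of this cluster are shown because most of them carry a sequence that was found in no other member with a promoter entry. Promoter sequences of 250 bases before and 50 bases from the RefSeq start of each gene were taken from RefSeq (GRCm38.p6), where 32 of the 46 genes had an entry. The AP-1 site, TGANTCA, which reads the same on both strands when N is left open, is bound by the FOS and JUN proteins and is a known element of collagenase and stromelysin promoters. It was found in 8 of the 10 cluster genes and in 0 of the 22 other members. Counted by promoter, this was 8 of 35 promoters of the members, against 7.81% of 32851 promoters of all genes. The 8 matches began 35 to 95 bases before the start. Each is given with 25 bases on either side, 5′ to 3′ on the strand of the gene, with the AP-1 match in capitals.
Mmp13 (chr9:7272454-7272510, plus strand): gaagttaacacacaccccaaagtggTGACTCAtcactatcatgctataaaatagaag
Mmp12 (chr9:7347305-7347361, plus strand): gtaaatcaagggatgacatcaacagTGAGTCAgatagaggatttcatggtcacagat
Mmp1b (chr9:7388088-7388144, minus strand): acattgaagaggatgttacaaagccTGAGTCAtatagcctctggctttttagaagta
Mmp3 (chr9:7445751-7445807, plus strand): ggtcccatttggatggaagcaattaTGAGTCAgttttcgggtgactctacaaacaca
Mmp1a (chr9:7464043-7464099, plus strand): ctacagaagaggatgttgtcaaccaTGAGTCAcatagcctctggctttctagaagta
Mmp10 (chr9:7502254-7502310, plus strand): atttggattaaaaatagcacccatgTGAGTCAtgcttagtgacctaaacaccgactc
Mmp20 (chr9:7628111-7628167, plus strand): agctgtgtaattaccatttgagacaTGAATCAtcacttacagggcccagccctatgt
Mmp7 (chr9:7692002-7692058, plus strand): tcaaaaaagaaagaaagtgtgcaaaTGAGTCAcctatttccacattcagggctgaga
A match describes these letters in this window and does not show that a factor binds there. All 8 genes with a match were listed at 0 in both libraries.

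For contrast, the 250 bases upstream of 3 members with clear values are given in the same way. Capitals mark the core of the hypoxia response element, ACGTG, on either strand, as CACGT where it lies on the opposite strand.
Adamts1 (chr16:85803114-85803363, minus strand): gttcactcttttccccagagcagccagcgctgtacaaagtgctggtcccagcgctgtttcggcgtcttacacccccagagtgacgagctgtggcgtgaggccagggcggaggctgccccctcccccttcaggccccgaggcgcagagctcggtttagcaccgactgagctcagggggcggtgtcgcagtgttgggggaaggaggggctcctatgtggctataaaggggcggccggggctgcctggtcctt
Timp1 (chrX:20869916-20870165, plus strand): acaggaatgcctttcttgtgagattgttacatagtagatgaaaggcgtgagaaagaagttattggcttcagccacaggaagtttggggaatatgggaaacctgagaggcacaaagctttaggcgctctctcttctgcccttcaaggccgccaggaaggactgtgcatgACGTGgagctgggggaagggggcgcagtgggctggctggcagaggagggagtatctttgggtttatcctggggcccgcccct
Mmp14 (chr14:54431348-54431597, plus strand): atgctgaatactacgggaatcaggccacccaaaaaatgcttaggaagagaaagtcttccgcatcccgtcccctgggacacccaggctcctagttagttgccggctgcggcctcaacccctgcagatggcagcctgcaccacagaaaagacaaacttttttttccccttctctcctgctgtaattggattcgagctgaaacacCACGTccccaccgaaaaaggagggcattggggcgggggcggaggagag
ACGTG was found in 8 of the 32 members with an entry. Counted by promoter, this was 8 of 35 promoters of the members, against 19.6% of the promoters of all genes. Of the 10 measured members with an entry, Timp1 and Mmp14 held it and the other 8 did not, and the Adamts1 window held neither motif. Timp1 was higher and Mmp14 lower in the ALA library.

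Over the 17 measured members, 11 were lower and 6 higher in the ALA library, where 52.2% of all measured genes were lower and 47.8% higher. On the log2 scale with 1 added, the median ratio of the members was -0.29, against -0.019 over all measured genes, and the range was -0.68 to 0.38. At least 1.5-fold lower on this scale were 3 members, Adamts1, Adamts5 and Adamts14, where 7.16% of all measured genes were. None of the 17 was at least 1.5-fold higher, where 5.9% of all measured genes were. Scaled to equal totals, 5.87% of measured genes were at least 1.5-fold lower and 7.80% at least 1.5-fold higher, and of the members only Adamts1 was past 1.5-fold lower. The count of 3 is small, and a member with a mean just above the minimum enters only if at least 1 library is high enough. At 2-fold on the same scale none of the members passed in either direction, where 2.01% of measured genes were lower and 1.49% higher.

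Genes of similar level give a scale for these ratios. Among the 4498 measured genes with a mean of 5 to 20 FPKM, 4.58% had a log2 ratio as low as that of Adamts1 (-0.68), 5.58% as low as that of Adamts5 (-0.64) and 9.92% as low as that of Mmp19 (-0.49). The ratio of Adamts14 (-0.62) was less unusual for its level, with 13.2% of 2322 genes of 1 to 5 FPKM as low. For Mmp14 (-0.29) the share was 15.03% of 3360 genes of 20 to 100 FPKM. Timp1 (0.25) was on the high side, with 8.54% of the 749 genes of at least 100 FPKM as high. Each of these members lay inside the middle 95% of ratios at its level.

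**Figure D2:**
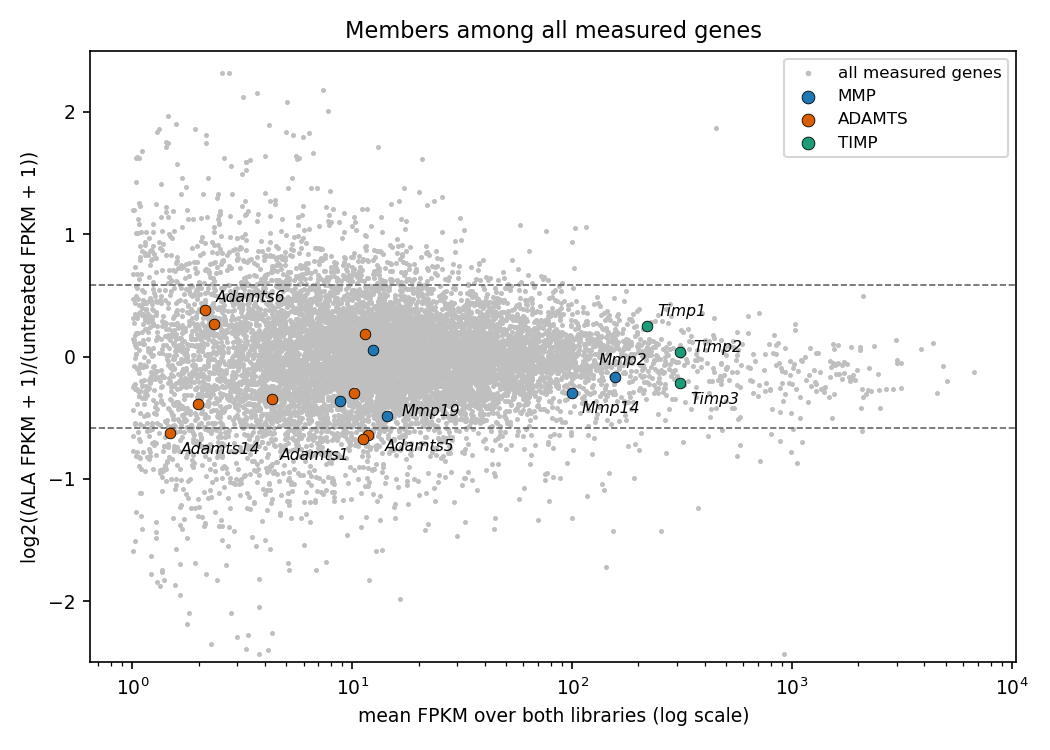
Log2 ratio of ALA to untreated with 1 FPKM added to both values (vertical axis) against mean FPKM (horizontal axis, log scale), for all measured genes in grey and the members in colour, with dashed lines at 1.5-fold. Adamts1, Adamts5 and Adamts14 lie just below the lower line, no member lies above the upper line, and 17 measured genes fall outside the plotted range of 2.5 in either direction.

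Among the MMPs, Mmp2 and Mmp14 made up nearly all of the signal. Mmp2, on chromosome 8 from 92827291 to 92853420, encodes a gelatinase that cuts denatured collagen and type IV collagen. It had 147 FPKM with ALA and 166 FPKM untreated, 1.13-fold lower with a counting interval of 1.10 to 1.15. Mmp14, on chromosome 14 from 54431612 to 54445364, encodes the membrane-anchored enzyme that activates the MMP2 precursor and cuts fibrillar collagen at the cell surface. It had 89.1 FPKM with ALA and 109 FPKM untreated, 1.23-fold lower with an interval of 1.19 to 1.27. Together these genes held 87.6% of the summed MMP level with ALA and 87.2% untreated. Their shares of that sum were 54.6% with ALA and 52.5% untreated for Mmp2, and 33.0% with ALA and 34.7% untreated for Mmp14.

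Mmp9, the other gelatinase gene, was near the lower end of detection, with 0.436 FPKM with ALA and 0.422 FPKM untreated. Its counting interval for the ratio of ALA to untreated ran from 0.616 to 1.70, so neither direction was resolved at this depth. Mmp11, the gene of stromelysin 3, is the only stromelysin gene with a value above 0 and lies outside the chromosome 9 cluster. It had 12.7 FPKM with ALA and 12.2 FPKM untreated, a ratio of 1.04 whose interval of 0.938 to 1.16 includes 1. Of its exon bases 5.58% overlap Chchd10 on the opposite strand.

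Mmp19 and Mmp28 encode secreted MMPs outside the classical groups, and MMP28 is also called epilysin. Mmp19 had 11.8 FPKM with ALA and 16.9 FPKM untreated, 1.43-fold lower with an interval of 1.32 to 1.56. Mmp28 had 7.57 FPKM with ALA and 10.01 FPKM untreated, 1.32-fold lower with an interval of 1.19 to 1.46. Both share sequence with another gene. Mmp19 shares 25.4% of its 41-base stretches with Tmem198b, a gene on the opposite strand that was higher, at 22.2 FPKM with ALA and 17.3 FPKM untreated. Mmp28 overlaps 1700020L24Rik, on the opposite strand, in 12.03% of its exon bases. No strand setting is given in the sources used here, so reads of such pairs cannot be told apart.

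**Figure D3:**
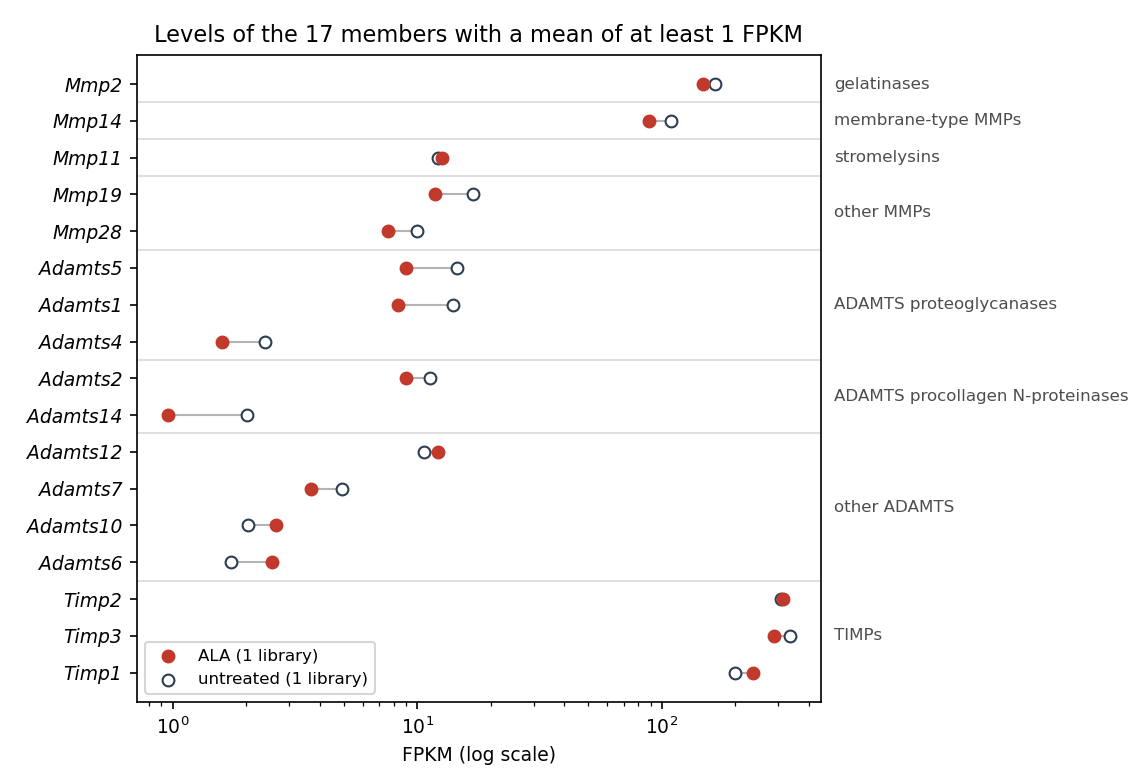
FPKM (horizontal axis, log scale) of the 17 measured members, grouped by role, with filled points for the ALA library and open points for the untreated library. Timp1, Timp2 and Timp3 lie highest, between 199 and 334 FPKM, and the ADAMTS proteoglycanase genes Adamts1, Adamts4 and Adamts5 are all lower in the ALA library.

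The ADAMTS proteoglycanases were lower in the ALA library in all 3 measured members, where 52.2% of all measured genes were lower. These enzymes cut aggrecan and versican, the large proteoglycans of cartilage and of loose connective tissue. Adamts1 had 8.35 FPKM with ALA and 13.95 FPKM untreated. Its level was 1.67-fold lower, with a counting interval of 1.55 to 1.80 from about 1187 reads with ALA and 1465 untreated. Adamts5, the gene of the main aggrecanase of mouse cartilage, had 8.999 FPKM with ALA and 14.6 FPKM untreated. It was 1.62-fold lower, with an interval of 1.54 to 1.70 from about 2826 reads with ALA and 3377 untreated. Adamts4 had a lower level, 1.59 FPKM with ALA and 2.38 FPKM untreated, a ratio of 0.668 with an interval of 0.552 to 0.813. Of the 7 genes of this group, 3 had values above 0 but a mean below 1 FPKM. Among these Adamts20 was higher, at 0.179 FPKM with ALA and 0.0117 FPKM untreated, while Adamts9 and Adamts15 had lower values with ALA.

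Adamts1 and Adamts5 are neighbours. Both are read from the minus strand of chromosome 16. Adamts1 spans 85793827 to 85803113, with 9 exons in its longest transcript, and Adamts5 spans 85856173 to 85901828, with 8 exons. The gap between them is 53.1 kb. The next measured genes on either side had ratios of differing size. App, the amyloid precursor protein gene, had 103 FPKM with ALA and 110 FPKM untreated. N6amt1, a methyltransferase gene on the far side of Adamts5, had 5.63 FPKM with ALA and 5.33 FPKM untreated. Ltn1, the gene of a ubiquitin ligase beyond N6amt1, was lower too, at 8.11 FPKM with ALA and 11.7 FPKM untreated. A second adjacent pair, Adamts15 and Adamts8 on chromosome 9, had almost no signal. Adamts15 was listed at 0 with ALA and at 0.0398 FPKM untreated, and Adamts8 at 0 in both.

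The procollagen N-proteinases remove the amino-terminal propeptide from fibrillar procollagens. Adamts2, the main enzyme of the group, had 9.02 FPKM with ALA and 11.3 FPKM untreated, 1.26-fold lower with an interval of 1.18 to 1.34. Adamts14 had the largest fold of all measured members, with 0.956 FPKM with ALA and 2.01 FPKM untreated. It was 2.11-fold lower with an interval of 1.71 to 2.63, from about 144 reads with ALA and 225 untreated, on chromosome 10 from 61197112 to 61273438. On the log2 scale with 1 added to each value, which shrinks the ratios of low genes, its ratio was -0.62, short of 2-fold. Adamts3 was listed at 0 in both libraries.

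The other ADAMTS genes did not share a direction. Adamts7 and Adamts12 encode a pair of related enzymes that cut cartilage oligomeric matrix protein. Adamts7 was lower, at 3.68 FPKM with ALA and 4.93 FPKM untreated, 1.34-fold lower with an interval of 1.19 to 1.51. Adamts12 was higher, at 12.2 FPKM with ALA and 10.6 FPKM untreated, 1.15-fold with an interval of 1.08 to 1.22. It had the highest FPKM of the ADAMTS genes in the ALA library, while Adamts5 had the highest in the untreated library. Adamts6 and Adamts10 form another related pair, of which ADAMTS10 is known for its link to fibrillin microfibrils. Adamts6 had 2.55 FPKM with ALA and 1.73 FPKM untreated, 1.48-fold higher with an interval of 1.28 to 1.71. Adamts10 had 2.65 FPKM with ALA and 2.03 FPKM untreated, 1.30-fold higher with an interval of 1.08 to 1.57.

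**Figure D4:**
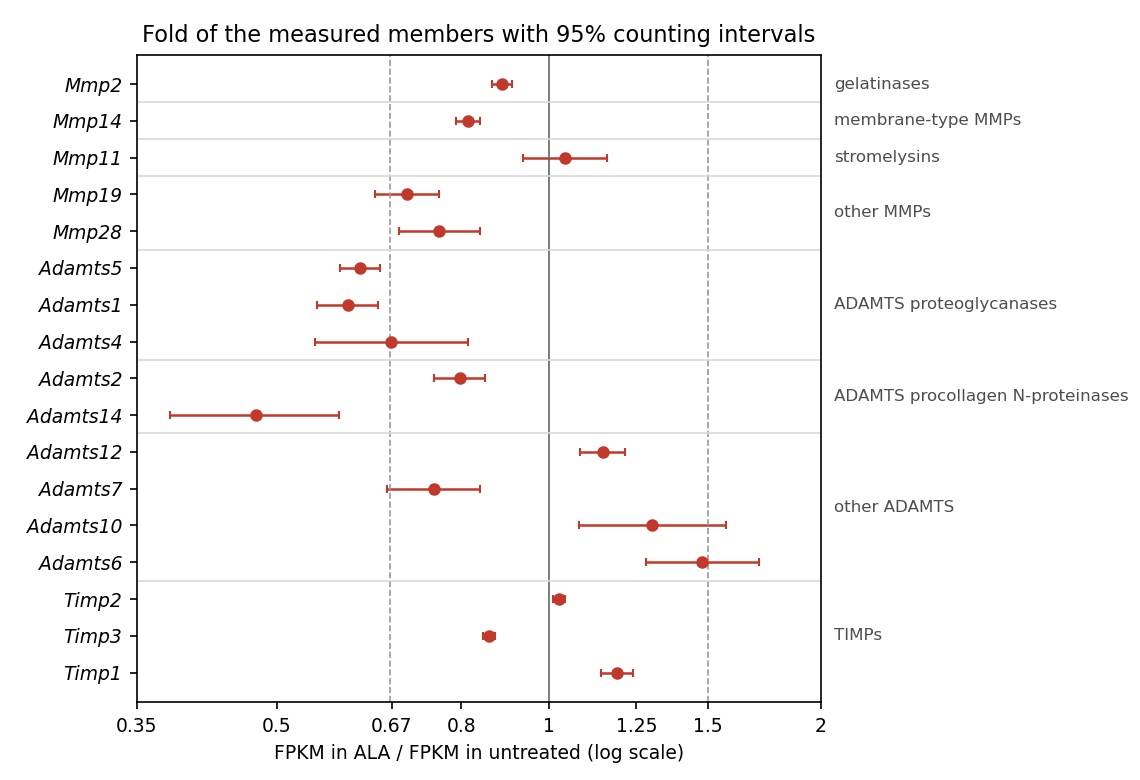
Ratio of FPKM in the ALA library to FPKM in the untreated library (horizontal axis, log scale) for the 17 measured members, with approximate 95% counting intervals as bars and dashed lines at 1.5-fold in either direction. The intervals of Adamts1, Adamts5 and Adamts14 lie wholly beyond 1.5-fold lower, and no interval lies wholly beyond 1.5-fold higher.

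The inhibitors were the most abundant members, and none of them reached 1.5-fold in either direction. TIMP2, which inhibits most MMPs and forms the complex with MMP14 that receives the MMP2 precursor, is encoded by Timp2. It had 314 FPKM with ALA and 306 FPKM untreated, a ratio of 1.03 with an interval of 1.01 to 1.04. TIMP3 binds the matrix and also inhibits ADAMTS4, ADAMTS5 and ADAM17. Timp3 had 287 FPKM with ALA and 334 FPKM untreated, 1.16-fold lower with an interval of 1.15 to 1.18. TIMP1 is a weak inhibitor of MMP14. Timp1 had 237 FPKM with ALA and 199 FPKM untreated, 1.19-fold higher with an interval of 1.14 to 1.24. Timp2 and Timp3 ranked 223 and 224 by mean level among the measured genes, and Timp1 ranked 319. Timp4 was listed at 0 in both libraries.

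In mouse, 3 of the TIMP genes lie inside synapsin genes, on the opposite strand, and the annotation used here showed this for Timp1 in Syn1, Timp3 in Syn3 and Timp4 in Syn2. Timp1 shares no exon bases with Syn1, which had 20.3 FPKM with ALA and 14.4 FPKM untreated. Timp3 overlaps Syn3 in 21.3% of its exon bases, but Syn3 had only 0.445 FPKM with ALA and 0.815 FPKM untreated. Timp1 and Timp2 share no exon bases with another gene.

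Timp2 stood above Timp3 in the ALA library and below it in the untreated library. The summed TIMP level was 837 FPKM with ALA and 839 FPKM untreated. Its log2 ratio of -0.0025 became 0.076 when both libraries were scaled to equal FPKM totals, so that no direction can be given. The summed MMP level was 269.9 FPKM with ALA and 316 FPKM untreated, a ratio of 0.855. The summed ADAMTS level was 51.4 FPKM with ALA and 64.03 FPKM untreated, a ratio of 0.803. Both sums stayed lower with ALA under equal totals, with log2 ratios of -0.15 for MMP and -0.24 for ADAMTS genes. The summed TIMP level was 3.10 times the summed MMP level with ALA and 2.66 times untreated. It was 16.3 times the summed ADAMTS level with ALA and 13.1 times untreated. These ratios within a library do not depend on the scaling between libraries. They compare transcripts, not proteins or activity.

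**Figure D5:**
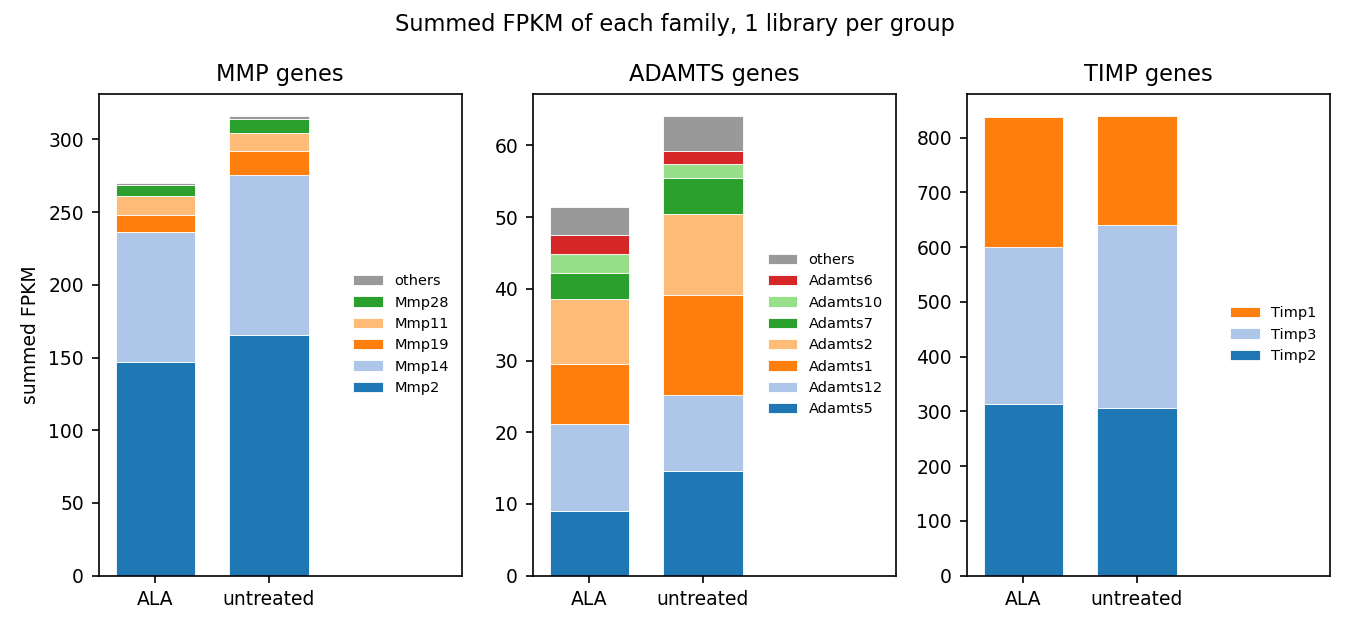
Summed FPKM (vertical axes, linear, from 0, a different scale for each family) of the MMP, ADAMTS and TIMP genes in the ALA and the untreated library, stacked by gene. The TIMP sums are 837 FPKM with ALA and 839 FPKM untreated, and the MMP and ADAMTS sums are lower with ALA.

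Members under a mean of 1 FPKM included the largest folds. Adamts13, which encodes the proteinase that cuts von Willebrand factor, had 1.13 FPKM with ALA and 0.2499 FPKM untreated. This was 4.51-fold higher with an interval of 2.95 to 7.34, from about 148 reads with ALA and 24 untreated, on chromosome 2 from 26973416 to 27009628. Its neighbour Rexo4, an exonuclease gene, was also higher, at 19.4 FPKM with ALA and 13.4 FPKM untreated, while Cacfd1 on the other side had 12.5 FPKM with ALA and 14.8 FPKM untreated. Adamts13 shares no exon bases with either.

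Mmp17 encodes an MMP held at the membrane by a lipid anchor. It had 0.262 FPKM with ALA and 0.0094 FPKM untreated, from about 49 reads with ALA and 1 untreated, a ratio of 28.0 with an interval of 6.20 to 1459. Adamts20, known in mouse from the belted coat pigment mutation, had 0.179 FPKM with ALA and 0.0117 FPKM untreated. With about 36 reads with ALA and 2 untreated, its ratio was 15.3 with an interval of 3.42 to 114. Neither gene reached 1 FPKM in either library, and with so few reads in the untreated library the size of these ratios is poorly fixed. Some markers of other cell types also had low values that were higher with ALA. The 5 endothelial markers summed to 0.894 FPKM with ALA and 0.379 FPKM untreated, with Pecam1 higher at 0.748 FPKM with ALA and 0.126 FPKM untreated, Tek lower at 0.139 FPKM with ALA and 0.253 FPKM untreated, and Kdr and Emcn at 0. Of the 7 macrophage and blood markers, 5 were higher with ALA (Cd68, Aif1, Ptprc, Itgam and Csf1r), while Lyz2 and Cd14, which carry the sum, were lower. Whether cells of other types were present in these NIH3T3 cultures was not tested. Any part of theirs in the values of the low members, Adamts13 among them, was not tested either.

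The other low members with values in both libraries showed no difference that counting resolved. For members at 0 in 1 library no interval was computed, so whether counting resolves their difference was not assessed. Mmp16, a membrane-anchored relative of Mmp14, had 0.823 FPKM with ALA and 0.941 FPKM untreated. Adamts9, which encodes a versicanase, had about 5 reads with ALA and 10 untreated, and Adamts17 about 13 with ALA and 3 untreated, with intervals that include a ratio of 1. Adamts16 was listed at 0 with ALA and at 0.0863 FPKM untreated, about 9 reads. Mmp25 was listed at 0 with ALA and at 0.0562 FPKM untreated, about 5 reads, and Adamts15 likewise had about 5 reads untreated and 0 with ALA. Mmp15, Mmp23 and Mmp24 stood at no more than 2 reads. Besides the cluster on chromosome 9, the genes listed at 0 in both libraries were Mmp21, Adamts3, Adamts8, Adamts18, Adamts19 and Timp4.

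Genes that act with these enzymes are given for comparison, from lists of known partners. Over all measured genes 52.2% were lower, 7.16% at least 1.5-fold lower and 5.9% at least 1.5-fold higher, with a median log2 ratio of -0.019. With equal totals 4711 of the 10929 measured genes were lower, and the median was 0.054. The plasminogen system, which makes plasmin, an activator of several MMP precursors, had 7 measured genes, 6 lower and 1 higher. The largest ratios were those of Plat, the tissue plasminogen activator gene, at 28.1 FPKM with ALA and 37.2 FPKM untreated, and Plau, the urokinase gene, at 3.27 FPKM with ALA and 2.65 FPKM untreated. S100a10, which encodes a plasminogen receptor subunit, had a log2 ratio of -0.20. None of the 7 reached 1.5-fold. With equal totals 4 of the 7 were lower, and the median of -0.12 became -0.042.

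Of 6 measured genes for activators, inducers and other inhibitors of MMPs, 4 were lower and 2 higher, where 52.2% of all measured genes were lower. Pcsk7, a proprotein convertase gene, was 2.35-fold higher, at 9.91 FPKM with ALA and 4.22 FPKM untreated, with 10.05% of its exon bases in another gene. It was the only gene of this list past 1.5-fold, where 5.9% of all measured genes were at least 1.5-fold higher. Bsg, the gene of the MMP inducer basigin, had 364 FPKM with ALA and 492 FPKM untreated. Cd44, whose product docks MMPs at the cell surface, had 69.6 FPKM with ALA and 93.01 FPKM untreated. Reck, which encodes a membrane-anchored inhibitor of MMPs, was higher at 6.95 FPKM with ALA and 5.59 FPKM untreated. Pcolce, the gene of the procollagen proteinase enhancer, had a log2 ratio of -0.35. Furin, whose product activates MMP14, MMP11 and ADAMTS precursors, had 17.2 FPKM with ALA and 19.1 FPKM untreated.

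The ADAM proteinases are membrane-bound relatives that shed cell surface proteins. All 8 measured genes of the ADAM list had lower values with ALA, where 52.2% of all measured genes were lower. The median log2 ratio of these 8 was -0.14, against -0.019 over all measured genes. With equal totals 1 of the 8 was no longer lower, where 4711 of the 10929 measured genes were lower. Rhbdf1, which helps ADAM17 to the cell surface, had the lowest ratio at -0.31, Adam17 itself had -0.23, Adam12 -0.18 and Adam15 -0.15. Adamtsl4 and Adamtsl5, relatives of the ADAMTS enzymes without the proteinase domain, had log2 ratios of -0.038 and -0.015, and both were above 0 with equal totals. Bmp1, the tolloid proteinase that removes the other end of procollagen, had 19.9 FPKM with ALA and 19.7 FPKM untreated.

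Among genes whose products the members cut, all 9 measured had lower values with ALA, where 52.2% of all measured genes were lower. The median log2 ratio of these 9 was -0.18, against -0.019 over all measured genes. With equal totals 8 of 9 were lower, where 4711 of the 10929 measured genes were. Fn1, Col1a1, Col1a2 and Col3a1 are also among the fibroblast markers given above, so the counts of these lists are not separate. Dcn, the gene of the small proteoglycan decorin, had 100.1 FPKM with ALA and 194 FPKM untreated. It was the only 1 of the 9 past 1.5-fold, where 7.16% of all measured genes were at least 1.5-fold lower. Fn1, Col3a1 and Col4a2, the genes of fibronectin and of chains of types III and IV collagen, had log2 ratios of -0.42, -0.26 and -0.18. Vcan, the versican gene and a substrate of ADAMTS1 and ADAMTS5, had 129 FPKM with ALA and 146 FPKM untreated, while Acan, the aggrecan gene, was at 0.0261 FPKM with ALA and at 0 untreated. Comp was at 0.1697 FPKM with ALA and 0.448 FPKM untreated, and Vwf, the substrate of ADAMTS13, at 0.0441 FPKM with ALA and 0.0164 FPKM untreated.

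Of 4 measured genes for receptors that bind or take up MMPs, ADAMTS enzymes and TIMPs, 3 were lower with ALA. These were Sdc4, Lrp1 and Sdc1. Over all measured genes 52.2% were lower and 7.16% at least 1.5-fold lower. None of these 3 reached 1.5-fold. Sdc4, the gene of syndecan 4, which is known to hold ADAMTS5 at the cell surface, had 145 FPKM with ALA and 208 FPKM untreated. Lrp1, the main endocytic receptor for ADAMTS4, ADAMTS5, MMP13 and TIMP3, had 82.4 FPKM with ALA and 101 FPKM untreated. Sdc1 had a log2 ratio of -0.10. The cartilage factor gene Sox9 had 44.9 FPKM with ALA and 56.0 FPKM untreated, while the other cartilage markers analysed were below 1 FPKM. Of the muscle markers Des had 1.12 FPKM with ALA and 1.95 FPKM untreated, and Myod1, Myog and Myh3 were listed at 0 in both libraries.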

How the data were processed

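Messenger RNA was sequenced from 1 ALA and 1 untreated NIH3T3 culture, as single-end reads of 41 bp per the labels' protocols. The authors deposited FPKM per gene in a table with the layout of Cufflinks, per the file headers. FastQC 0.11.5, TopHat2 2.1.1, Cufflinks 2.2.1 and mm10 are named in the submitters' processing notes. Sources used here do not give the annotation, the options, the strand setting or how the libraries were scaled. The deposited interval bounds were equal to each other in 100% of rows and carried no error.

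Ratios were computed as log2((ALA FPKM + 1)/(untreated FPKM + 1)) with Python 3.11.15 and pandas 2.3.3, for genes that average at least 1 FPKM. A difference counted from 1.5-fold on this scale. No count model was fitted, as FPKM are normalized values. Depth was estimated from the steps of low values. At the best relative depth 35.6% of the ratios of 461 low genes lay no more than 0.06 (log2) from a ratio of whole numbers up to 3, against 14.3% at the median scaling. Approximate reads are FPKM times the length of the longest GENCODE vM21 transcript times depth, and exact conditional binomial intervals were computed from them with SciPy 1.17.1. They rest on this depth and cover counting error only. Of the genes 94.4% matched a gene model by name and position, all 46 members among them. Sequence shared with other genes was counted over exact stretches of 41 bases. The procedure was tested on simulated data.

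All measured members are named, and up to 4 measured genes with the largest ratios of each other list. Some genes of these lists are not reported here. Further genes were named after their values were seen. The members and lists were chosen with earlier results of these data known.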

Additional observations from a re-analysis of the deposited data

How the results depend on the processing

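Pseudocounts of 0.1 and 5, no filter, a minimum mean of 5 FPKM, equal FPKM totals, centring on the median of measured genes, leaving out members that share at least 10% of sequence or exon bases, and a 2-fold limit were tried. The count of members at least 1.5-fold lower, 3, became 0 with a pseudocount of 5, 1 with equal totals, 2 with a minimum mean of 5 FPKM, which leaves 12 members and not Adamts14, and 0 at 2-fold. The share of all measured genes, 7.16%, moved too. It was 2.74% with a pseudocount of 5, 5.87% with equal totals, 5.19% with a minimum mean of 5 FPKM and 2.01% at 2-fold. The count at least 1.5-fold higher, 0, became 1 with no filter, which is Adamts13. In that direction the share was 5.90% of measured genes, and 3.80% of all genes with no filter. The median log2 ratio of the members, -0.29, became 0 with no filter, as 16 genes are listed at 0, and otherwise ran from -0.30 to -0.19. No measured member changed sign under the other pseudocounts, equal totals or centring. The 1.5-fold call of Adamts1 was lost with a pseudocount of 5 (-0.51), and those of Adamts5 (-0.48 and -0.57) and Adamts14 (-0.24 and -0.58) with a pseudocount of 5 and with equal totals. A larger pseudocount shrinks ratios by construction. Equal totals for the family sums were added after seeing the data. No paired analysis was possible because each group has 1 library, and for the same reason no library could be left out. Depth limits the members under 1 FPKM most: about 24 reads stand behind the untreated value of Adamts13.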
